A study of Mus musculus with 18 samples.

Results

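A set of 10 known or reported p53 targets that act in metabolism and DNA repair was followed through mouse acute myeloid leukemia (AML) treated with CX-5461, a small molecule that blocks transcription of ribosomal RNA genes by RNA polymerase I. The 10 genes were listed by name, with earlier results of these data known. Sesn1, Sesn2 and Ddit4 restrain growth signalling, and Ak1, Dcxr and Tigar encode metabolic enzymes. Xpc, Ercc5, Polk and Rrm2b serve DNA repair and nucleotide supply. All 10 were present in each of 3 deposited expression tables, among 12861 genes for p53null AML at 10 h, 12679 genes for p53WT AML at 10 h and 12838 genes for p53WT AML at 72 h.

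The 18 samples formed 6 groups of 3, all from C57BL/6 mice carrying transplanted MLL/ENL Nras leukemia, in which the MLL/ENL fusion and Nras were shared by every group. Leukemias labelled p53null were taken 10 h after CX-5461 or vehicle, and those labelled p53WT 10 h and 72 h after CX-5461 or vehicle. GFP-positive cells were sorted from the marrow of mice with established disease, so each sample is a sorted population and may hold other cells of the host. The labels give neither a dose nor the number of animals, and do not say whether samples of a group came from separate mice, so that p-values measure only the spread between these samples.

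The p53 protein is a transcription factor that stays scarce in unstressed cells and accumulates after DNA damage or when ribosome production is disturbed. Besides its arrest and apoptosis genes, it switches on genes that dampen the growth kinase complex mTORC1, redirect sugar and nucleotide metabolism, and recognise, bypass or repair damaged DNA. Several of them answer to other signals as well: Sesn2 is also a target of ATF4, the transcription factor of the amino acid and integrated stress response, and Ddit4 is also raised by hypoxia and by glucocorticoids.

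Counts per library were available for p53WT AML at 10 h. The CX-5461 libraries 1, 2 and 3 held 37244725, 21578685 and 23150282 counts over the listed genes, and the vehicle libraries 1, 2 and 3 held 48118513, 27921504 and 22090394. The depth of the other 12 libraries is unknown. Levels below are counts scaled to the library total (CPM), with the TMM method. Cdkn1a, the p53 target that encodes the cell cycle inhibitor p21, reached 232, 262 and 247 CPM with CX-5461, against 51.2, 55.3 and 48.7 CPM with vehicle. Trp53 itself, the gene named by the genotype labels, stood at 183, 182 and 180 CPM with CX-5461 and at 168, 142 and 160 CPM with vehicle, a log2 fold change of 0.21 (SE 0.0668, edgeR adjusted p = 0.0826). Trp53 was still listed for p53null AML in the authors' deposited table, at a mean of 61.5 CPM over both arms, against 169 CPM for p53WT AML at the same time. The labels do not say which part of the gene was lost, and values per library were not available to check the genotype of single samples.

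Several markers of other marrow cell types differed between the arms in the same 6 libraries, and the erythroid ones spread widely among the vehicle libraries. All 12 listed AML genes were measured, and their summed level was 14450 to 14551 CPM with CX-5461 and 11818 to 14477 CPM with vehicle, with Ptprc called lower (log2 fold change -0.41, edgeR adjusted p = 0.0344) and 5 lower and 1 higher at an unadjusted p under 0.05. Erythroid genes, 15 of 16 measured with Epor absent from the table, summed to 472, 684 and 583 CPM with CX-5461, against 5977, 20026 and 791 CPM with vehicle, and 9 of them were called lower. The other tools called 14 of them lower (DESeq2 and the edgeR exact test) or 0 (limma-voom). Mature neutrophil genes, all 12 measured, summed to 3266, 4363 and 3167 CPM with CX-5461 and to 10935, 19834 and 7562 CPM with vehicle, and 9 were called lower, against 12 with DESeq2 and the edgeR exact test and 7 with limma-voom. Macrophage genes (9 of 10 measured) summed to 501 to 532 CPM with CX-5461 and to 538 to 753 CPM with vehicle, with C1qa called lower. Of these 9, 7 were lower at an unadjusted edgeR p under 0.05. DESeq2 and the edgeR exact test each called 6 lower, and limma-voom 0. For B cells 4 of 9 genes were measured and Ighm was called lower, with a summed level of 98.8 to 119 CPM with CX-5461 and 154 to 528 CPM with vehicle, while the defining markers Ms4a1 and Pax5 were absent. Of these 4, 3 were lower at an unadjusted edgeR p under 0.05. The same number was called lower by DESeq2 and by the edgeR exact test, against 0 with limma-voom. Of the T and NK cell genes 3 of 10 were measured. Nkg7 was called higher, Cd3d at -1.79 and Lck at -1.90 on the log2 scale were not called (edgeR adjusted p = 0.11 and 0.18), and Cd3e, Cd3g, Cd4 and Cd8a were absent. The list summed to 92.9 to 94.1 CPM with CX-5461 and to 59.5 to 79.9 CPM with vehicle. Of the megakaryocyte genes 4 of 7 were measured, at 4.43 to 6.7 CPM with CX-5461 and 6.4 to 16.8 CPM with vehicle, and 4 of 9 stromal and endothelial genes, at 86.1 to 88 CPM with CX-5461 and 87.4 to 105 CPM with vehicle. None of either list was called by the edgeR test, with 1 gene of each lower at an unadjusted p under 0.05. In such sorted samples fewer cells of a type and less RNA per cell cannot be told apart, and which cells made these transcripts was not tested.

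In p53WT AML at 10 h, 6 of the 10 genes rose with CX-5461 and none fell. They were Ak1, Sesn2, Ddit4, Polk, Dcxr and Ercc5, with 1.51-fold to 6.39-fold higher mean CPM. Ak1 alone was over 1 CPM in the CX-5461 libraries only, and met the filter described below through them. The share of all 12679 genes called higher by the same rule, an edgeR quasi-likelihood test with a Benjamini-Hochberg adjusted p under 0.05, was 3.78%, and the share called lower was 4.32%. In 7 of the 10, the 6 and Tigar, every CX-5461 library lay above every vehicle library, and in none did every one lie below. Over all genes the shares were 19.9% above and 19.1% below. The median log2 fold change of the 10 was 0.74, against 0.00 over all genes. At an unadjusted p under 0.05 the edgeR test counted 7 of the 10 higher and 0 lower, beside 14.7% higher and 16.7% lower over all genes. DESeq2, limma-voom and the edgeR exact test likewise called 0 lower, beside 11.1%, 2.6% and 8.05% of the genes they tested.

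**Figure D1:**
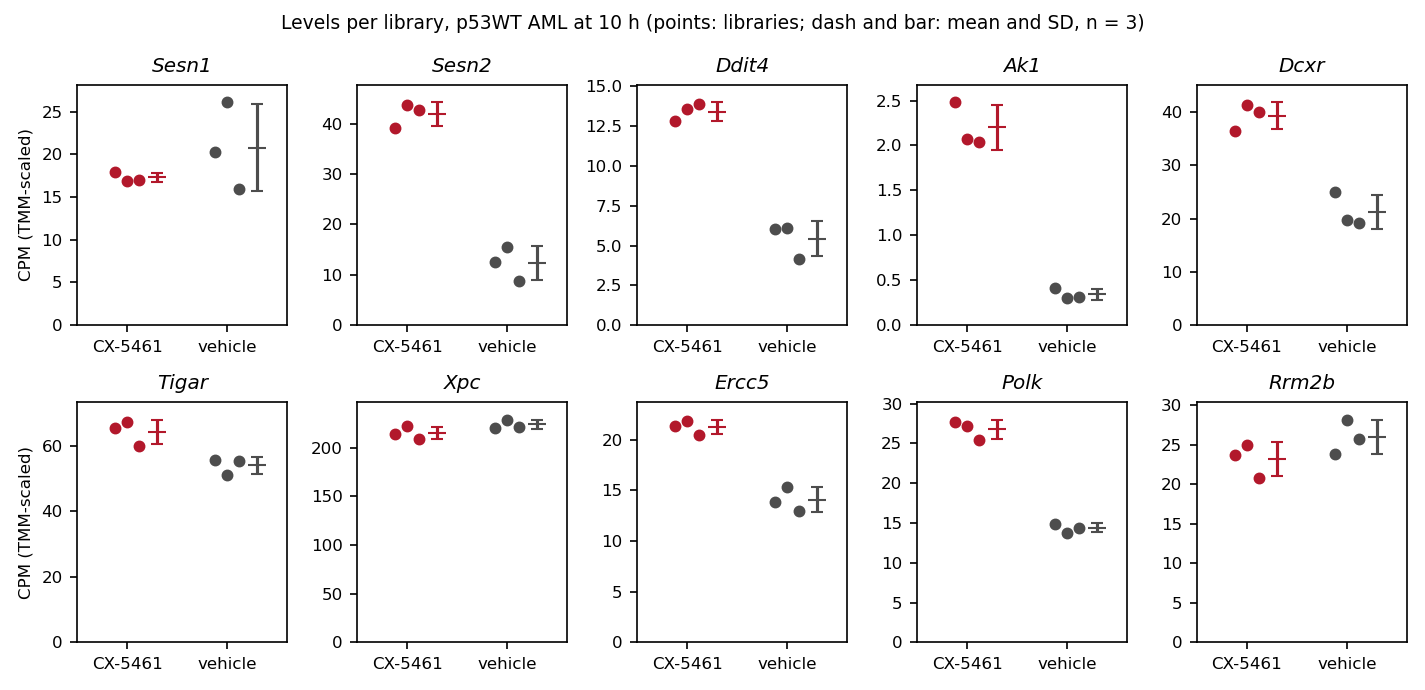
Level of each of the 10 genes in CPM (TMM-scaled, vertical axes from 0, a scale of its own in each panel) in the 3 CX-5461 libraries (red, left) and the 3 vehicle libraries (grey, right) of p53WT AML at 10 h; points are libraries, dash and bar the mean and SD. The red points stand clear above the grey ones for Sesn2, Ddit4, Ak1, Dcxr, Tigar, Ercc5 and Polk, and overlap them for Sesn1, Xpc and Rrm2b.

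Among the regulators of mTORC1, both Sesn2 and Ddit4 rose and Sesn1 did not pass the test. Sestrins are leucine-sensitive inhibitors that keep mTORC1 off the lysosome through the GATOR complexes, and Ddit4 (REDD1) restrains mTORC1 through the TSC complex. Sesn2 (ENSMUSG00000028893) was measured at 39.2, 43.7 and 42.7 CPM in the CX-5461 libraries and at 12.6, 15.5 and 8.86 CPM in the vehicle libraries. The lowest treated library was above the highest vehicle library, and the means were 41.9 ± 2.33 CPM with CX-5461 and 12.3 ± 3.35 CPM with vehicle (SD, n = 3 each), a 3.39-fold difference. The log2 fold change was 1.76 (SE 0.184, edgeR adjusted p = 0.0113), and 14 of all genes tested had a higher one. Sesn1 (ENSMUSG00000038332), the paralog of Sesn2, had 17.9, 16.9 and 17.0 CPM with CX-5461, against 20.3, 26.1 and 16 CPM with vehicle. The treated libraries lay close together within the range of the vehicle libraries. Its log2 fold change was -0.27 with a 95% interval of -0.66 to 0.12 (edgeR adjusted p = 0.307), an interval whose upper bound was far below the rise of Sesn2.

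Ddit4 (ENSMUSG00000020108) had 12.8, 13.6 and 13.9 CPM in CX-5461 libraries and 6.02, 6.11 and 4.16 CPM in vehicle libraries. No treated library came near a vehicle library, with means of 13.4 ± 0.589 CPM with CX-5461 and 5.43 ± 1.10 CPM with vehicle (SD, n = 3 each). The log2 fold change was 1.30 (SE 0.156, edgeR adjusted p = 0.016), exceeded by 30 of all genes tested. Both Sesn2 and Ddit4 had their lowest vehicle value in vehicle library 3, which also had the least erythroid RNA of the vehicle group. The part of erythroid transcripts in this spread was not tested.

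The stretches upstream of the annotated starts of the sestrins show how the promoters of this divergent pair differ in letters. They are RefSeq sequence of the GRCm38.p6 build, 5′ to 3′ on the gene's strand, free of annotated exons, and end at or before the start. The tables were made with another build (mm9), so these coordinates belong to the sequences and not to the expression values. Capitals in the Sesn1 stretch mark a match to the 10-letter p53 consensus (decamer). The Sesn2 stretch, at chr4:132510502-132510706 on the minus strand, holds no match to any motif searched. The Sesn1 stretch is that of its second RefSeq start, at chr10:41887189-41887438 on the plus strand. The window of its first start, not printed here, held no match to any motif searched, like that of Sesn2.
Sesn2: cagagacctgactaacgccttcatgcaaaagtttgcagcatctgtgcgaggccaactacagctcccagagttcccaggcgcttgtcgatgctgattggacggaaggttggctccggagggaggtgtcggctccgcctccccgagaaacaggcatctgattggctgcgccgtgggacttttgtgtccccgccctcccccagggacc
Sesn1: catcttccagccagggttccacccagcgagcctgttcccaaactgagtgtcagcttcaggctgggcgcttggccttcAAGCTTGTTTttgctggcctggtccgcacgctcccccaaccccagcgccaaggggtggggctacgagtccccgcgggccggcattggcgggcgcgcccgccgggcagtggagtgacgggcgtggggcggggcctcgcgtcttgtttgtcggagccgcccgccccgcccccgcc

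The promoters were searched on both strands for 4 motifs, in windows from 250 bases before to 50 bases after each RefSeq start: the p53 decamer, the full p53 element of 2 decamers with a spacer of 0 to 13 bases, TGATGNAA (the core of the element bound by ATF4) and ACGTG (the core of the hypoxia response element, which is part of the E-box CACGTG). Windows were found for 8 of the 10 genes, 13 windows in all; Xpc and Rrm2b were not matched. The decamer was found in 2 of the 13 windows, of Sesn1 and Polk, and in 8.36% of all 32851 windows. The full element was found in none of the 13 windows, near the 0.0731% of all windows. TGATGNAA stood in 1 of the 13 windows, of Polk (3.97% of all windows), and ACGTG in 3 of the 13, of Ddit4, Ercc5 and Ak1 (19.6%). For comparison, the window of the upstream start of Cdkn1a held a full element, 73 bases before that start. The window of its downstream start held no match to any of the 4 motifs. A match describes letters in these windows and is not evidence of binding. The matches that lie outside annotated exons are given here with the motif in capitals, from Ddit4 (chr10:59951933-59951977, minus strand, 187 bases before the start), Ercc5 (chr1:44147638-44147682, plus strand, 86 bases before), Ak1 (chr2:32629447-32629491, plus strand, 33 bases before its most downstream start, motif on the opposite strand), Polk (chr13:96519389-96519437, minus strand, 231 bases before its downstream start) and Cdkn1a (chr17:29090906-29090937, plus strand, 73 bases before, element and spacer only).
Ddit4, ACGTG: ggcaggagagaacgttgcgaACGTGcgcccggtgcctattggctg
Ercc5, ACGTG: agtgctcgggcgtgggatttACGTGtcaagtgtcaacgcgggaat
Ak1, ACGTG: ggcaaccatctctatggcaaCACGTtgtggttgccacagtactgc
Polk, p53 decamer: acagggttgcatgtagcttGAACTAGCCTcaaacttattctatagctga
Cdkn1a, full p53 element: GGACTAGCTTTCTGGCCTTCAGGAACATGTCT

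All 3 metabolic enzymes were higher in every CX-5461 library than in any vehicle library, and Ak1 and Dcxr passed the test. Ak1 (ENSMUSG00000026817) encodes the cytosolic adenylate kinase that interconverts ATP, ADP and AMP. It had 2.48, 2.07 and 2.04 CPM in CX-5461 libraries, from 94, 45 and 48 reads, and 0.417, 0.302 and 0.313 CPM in vehicle libraries, from 20, 8 and 7 reads. Few reads thus stood behind the gene with the largest fold change of the 10, which reached 2.2 ± 0.245 CPM with CX-5461, against 0.344 ± 0.0632 CPM with vehicle (SD, n = 3 each). Every gene with counts exceeded 1 CPM in at least 3 libraries, and Ak1 did so only with CX-5461. Its place among the genes tested thus depended on its level in the treated arm. The log2 fold change of 2.62 (SE 0.216, 95% interval 2.11 to 3.13, edgeR adjusted p = 0.0033) was exceeded by 5 of all genes tested.

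Dcxr (ENSMUSG00000039450), the dicarbonyl and L-xylulose reductase of the glucuronate pathway, had 36.5, 41.3 and 40.0 CPM with CX-5461 and 24.9, 19.8 and 19.1 CPM with vehicle. The groups were well apart, at 39.3 ± 2.49 CPM with CX-5461 and 21.2 ± 3.17 CPM with vehicle (SD, n = 3 each), and the log2 fold change was 0.88 (SE 0.113, edgeR adjusted p = 0.0188). Tigar (ENSMUSG00000038028) encodes a fructose-2,6-bisphosphatase that lowers glycolytic flux and favours the pentose phosphate pathway. Its levels were 65.3, 67.2 and 60.0 CPM with CX-5461 and 55.7, 51.0 and 55.4 CPM with vehicle. The groups did not overlap, but the difference was small, with a log2 fold change of 0.25 (SE 0.0641, 95% interval 0.10 to 0.40), and fell short of the threshold (edgeR adjusted p = 0.0562). DESeq2 called it, with an adjusted p of 0.0234, while limma-voom gave 0.0662 and the edgeR exact test 0.0532. The library kit does not mark strand, and 122 bases of Tigar exons overlap exons of the antisense gene Platr31 in the GENCODE vM21 annotation.

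Of the 4 repair and nucleotide supply genes, Polk and Ercc5 rose, while Xpc and Rrm2b did not pass the test. Polk (ENSMUSG00000021668) encodes DNA polymerase kappa, which copies past bulky lesions. It was measured at 27.7, 27.2 and 25.4 CPM with CX-5461 and at 14.9, 13.8 and 14.4 CPM with vehicle. Both groups were tight, at 26.8 ± 1.19 CPM with CX-5461 and 14.4 ± 0.546 CPM with vehicle (SD, n = 3 each), and the log2 fold change was 0.90 (SE 0.0712, edgeR adjusted p = 0.00288), the smallest p among the 10. Ercc5 (ENSMUSG00000026048), the XPG endonuclease that cuts on the 3′ side of a lesion in nucleotide excision repair, had 21.4, 21.9 and 20.5 CPM with CX-5461, against 13.9, 15.3 and 13 CPM with vehicle. These groups did not overlap either, and the means were 21.3 ± 0.696 CPM with CX-5461 and 14.1 ± 1.2 CPM with vehicle (SD, n = 3 each), a log2 fold change of 0.59 (SE 0.0851, edgeR adjusted p = 0.0246).

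Xpc (ENSMUSG00000030094), the damage sensor that opens nucleotide excision repair across the genome, had 214, 222 and 209 CPM with CX-5461 and 220, 229 and 221 CPM with vehicle. The libraries overlapped, and the 95% interval of its log2 fold change (-0.06, edgeR adjusted p = 0.419) ran from -0.16 to 0.05. Rrm2b (ENSMUSG00000022292) encodes p53R2, the small subunit that supplies ribonucleotide reductase activity outside S phase and is p53-inducible in human cells. Its levels were 23.7, 25.0 and 20.8 CPM with CX-5461 and 23.9, 28.2 and 25.8 CPM with vehicle, which overlapped. The log2 fold change was -0.16 (SE 0.0976, 95% interval -0.39 to 0.07, edgeR adjusted p = 0.295). Rrm2, its S-phase paralog, had 271, 274 and 259 CPM with CX-5461, against 268, 340 and 249 CPM with vehicle (edgeR adjusted p = 0.611). In GENCODE vM21, 734 bases of Rrm2b exons overlap the antisense gene Gm49085, whose reads these libraries cannot separate.

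The vehicle libraries spread more than the treated ones for several of these genes. The coefficient of variation was 5.58% with CX-5461 and 27.1% with vehicle for Sesn2, 3.14% with CX-5461 and 24.3% with vehicle for Sesn1, and 4.38% with CX-5461 and 20.2% with vehicle for Ddit4. Vehicle library 2, with the most erythroid RNA, had the highest vehicle value of Sesn1, Sesn2, Ddit4, Ercc5, Xpc and Rrm2b. With the mean erythroid level as a covariate in the edgeR fit, 18 genes in all (0.142%) were called higher, among them 2 of the 10, Sesn2 at a log2 fold change of 2.53 (edgeR adjusted p = 0.00479) and Ddit4 at 1.85 (edgeR adjusted p = 0.0468). The other 4 did not pass in that fit, with log2 fold changes of 2.57 for Ak1, 0.98 for Dcxr, 0.83 for Polk and 0.80 for Ercc5 and edgeR adjusted p-values of 0.181 to 0.329. The part of neutrophil transcripts in these results was not tested.

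Leaving out vehicle library 1, 2 or 3 left the same 6 genes called each time, beside 6.44%, 4.5% and 3.74% of all genes called higher. Leaving out CX-5461 library 1, 2 or 3 left 2 of the 10 called, Ak1 and Polk in each case, while 24, 23 and 23 genes were called higher in the whole table (0.189%, 0.181% and 0.181%). The log2 fold changes themselves moved little over the 6 omissions: 1.58 to 1.93 for Sesn2, 1.15 to 1.38 for Ddit4, 2.52 to 2.83 for Ak1, 0.81 to 1.01 for Dcxr, 0.54 to 0.66 for Ercc5 and 0.87 to 0.93 for Polk. Calls of Sesn2, Ddit4, Dcxr and Ercc5 thus rested on all 3 treated libraries, with edgeR adjusted p-values of 0.0697 to 0.156 when any 1 of them was left out.

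**Figure D2:**
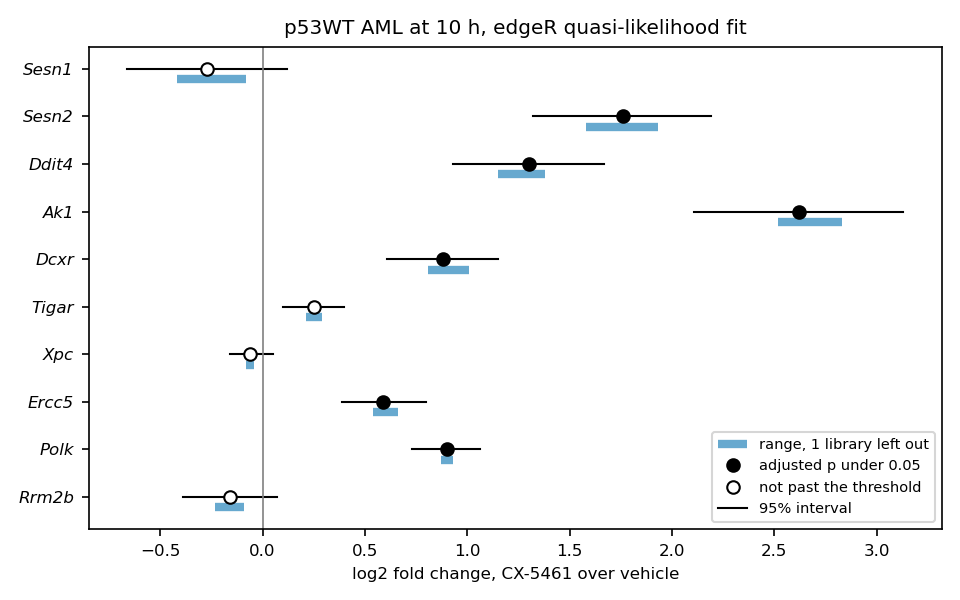
Log2 fold change, CX-5461 over vehicle, of the 10 genes in p53WT AML at 10 h from the edgeR quasi-likelihood fit (horizontal axis); black lines are 95% intervals, filled points passed an adjusted p under 0.05, and blue bars span the values with each of the 6 libraries left out. The 6 filled points run from 0.59 for Ercc5 to 2.62 for Ak1, and the intervals of Sesn1, Xpc and Rrm2b include 0.

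Per kilobase of exon (GENCODE vM21 lengths, since the sources used here do not name the authors' annotation), the order of the levels changed with treatment. With CX-5461 it ran from Xpc at 39.1 ± 1.13 CPM per kb and Dcxr at 34.3 ± 2.18, through Tigar at 17.5 ± 1.02, Sesn2 at 12.1 ± 0.672 and Ddit4 at 7.66 ± 0.336, down to Ak1 at 0.847 ± 0.0945 (SD, n = 3). With vehicle, Xpc was at 40.7 ± 0.905 CPM per kb, Dcxr at 18.6 ± 2.77, Tigar at 14.8 ± 0.718 and Ak1 at 0.133 ± 0.0244 (SD, n = 3). The sestrins changed places: Sesn2 stood at 12.1 ± 0.672 and Sesn1 at 4.34 ± 0.136 CPM per kb with CX-5461, whereas with vehicle Sesn2 stood at 3.55 ± 0.963 and Sesn1 at 5.23 ± 1.27. With vehicle the pair overlapped within their SDs, but both were measured in the same libraries, and Sesn1 was the higher in each. Before scaling by exon length (3982 bases for Sesn1, 3475 for Sesn2), Sesn1 had 20.3, 26.1 and 16 CPM there. Sesn2 had 12.6, 15.5 and 8.86 CPM in the same vehicle libraries. Polk, Ercc5 and Rrm2b were between 2.54 and 4.82 CPM per kb with CX-5461 and between 2.40 and 2.84 with vehicle, where neighbours in that order overlapped within their SDs.

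To set genotypes and times side by side, the values for the next comparisons come from a single source, the authors' deposited tables, which give a log2 fold change and a false discovery rate (FDR) per gene but, for p53null AML and for 72 h, no values per library. In the authors' deposited table for p53WT AML at 10 h, the same 6 genes were called higher at an FDR under 0.05, against 3.57% of all genes called higher and 6.83% called lower. The sign of the fold change was checked on the counts of this table (r = 0.993 across genes) and was taken to be the same in the others.

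In p53null AML at 10 h none of the 10 genes was called in the authors' deposited table. In that comparison 0.148% of all genes were called higher and 0.0389% lower, so that a count of 0 among 10 genes lies near the background. The authors' unadjusted edgeR p was under 0.05 for 1 of the 10, beside 6.07% of all genes. That gene was Rrm2b, with a log2 fold change of -0.19 and an FDR of 0.821 in the authors' deposited table. The fold changes themselves were small throughout, from -0.22 for Sesn2 to 0.03 for Xpc, with a median of -0.09 against -0.00 for all genes. For Ak1 the authors' deposited tables gave log2 fold changes of -0.06 in p53null AML and 2.62 in p53WT AML at 10 h. For Sesn2 they gave -0.22 in p53null AML and 1.76 in p53WT AML, for Ddit4 -0.13 and 1.29 in the same order, and for Polk -0.17 and 0.90. Dcxr was at -0.21 in p53null AML and 0.88 in p53WT AML, and Ercc5 at -0.05 in p53null AML and 0.59 in p53WT AML. Negative estimates in p53null AML were listed for 8 of the 10, among them the 6 that rose in p53WT AML, beside a median of -0.00 over all genes. The unadjusted edgeR p-values of these 6 were 0.0675 to 0.746 in the authors' deposited table, so their signs were not told apart from 0. Of the others, Sesn1 was at 0.00, Tigar at -0.00, Xpc at 0.03 and Rrm2b at -0.19 in p53null AML, against -0.27, 0.25, -0.06 and -0.16 in p53WT AML, none of them called. The 7 erythroid and 12 mature neutrophil genes listed for p53null AML had 0 calls and 0 unadjusted p-values under 0.05 from edgeR in the authors' deposited table, unlike in p53WT AML, and their part in the difference between genotypes was not tested. That difference itself was not tested, because counts of p53null AML were not available, and genotype cannot be told apart from other differences between the leukemias.

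At 72 h in p53WT AML, the authors' deposited table called 5 of the 10 higher and none lower, in a comparison where 16.1% of all genes were called higher and 15.1% lower. Its count at an unadjusted p under 0.05 was also 5 of 10, beside 39.9% of all genes. Sesn2 had a log2 fold change of 1.53 (FDR = 2.7e-34) and Ak1 of 2.55 (FDR = 4.9e-13) in the authors' deposited table. In it, 1.64% of all genes had a higher value than Sesn2 and 0.444% a higher value than Ak1. The mean of Ak1 over both arms was 0.959 CPM, a log2 mean of -0.06, near the lowest listed at 72 h (-0.35). Without values per library, it could not be checked whether Ak1 was listed there through its CX-5461 samples only. Ddit4 was at 0.60 (FDR = 0.00292), Dcxr at 0.52 (FDR = 5.18e-05) and Polk at 0.26 (FDR = 0.0388) in the authors' deposited table. Ercc5, called at 10 h, was at 0.18 with an FDR of 0.225. The remaining 4 were not called at either time, with log2 fold changes at 72 h of 0.10 for Tigar, 0.07 for Rrm2b, 0.01 for Sesn1 and -0.12 for Xpc.

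Set beside 10 h, the 72 h estimates of Ak1 and Sesn2 were nearly as large, and those of the other genes that had risen were smaller. The log2 fold change in the authors' deposited tables, 72 h minus 10 h, was -0.06 for Ak1, -0.23 for Sesn2, -0.37 for Dcxr, -0.42 for Ercc5, -0.64 for Polk and -0.70 for Ddit4. As linear ratios, Ddit4 was 2.45-fold higher with CX-5461 at 10 h and 1.51-fold higher at 72 h, and Polk 1.86-fold and 1.2-fold. Across the 10 genes the 2 sets of log2 fold changes had a Pearson correlation of 0.93, and those of p53WT and p53null AML at 10 h one of -0.33, both descriptions of 10 genes and not of replicates. Differences between the times were not tested, since counts at 72 h were not available, and the times have separate vehicle groups. Markers of other marrow cells moved the other way at 72 h than at 10 h: in the authors' deposited table for 72 h, 10 of 16 erythroid genes, 12 of 12 mature neutrophil genes and 6 of 9 macrophage genes were higher with CX-5461. Sesn2, Ak1, Ddit4, Dcxr and Polk were higher at both times, and the part of the marker transcripts in the 72 h values was not tested.

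**Figure D3:**
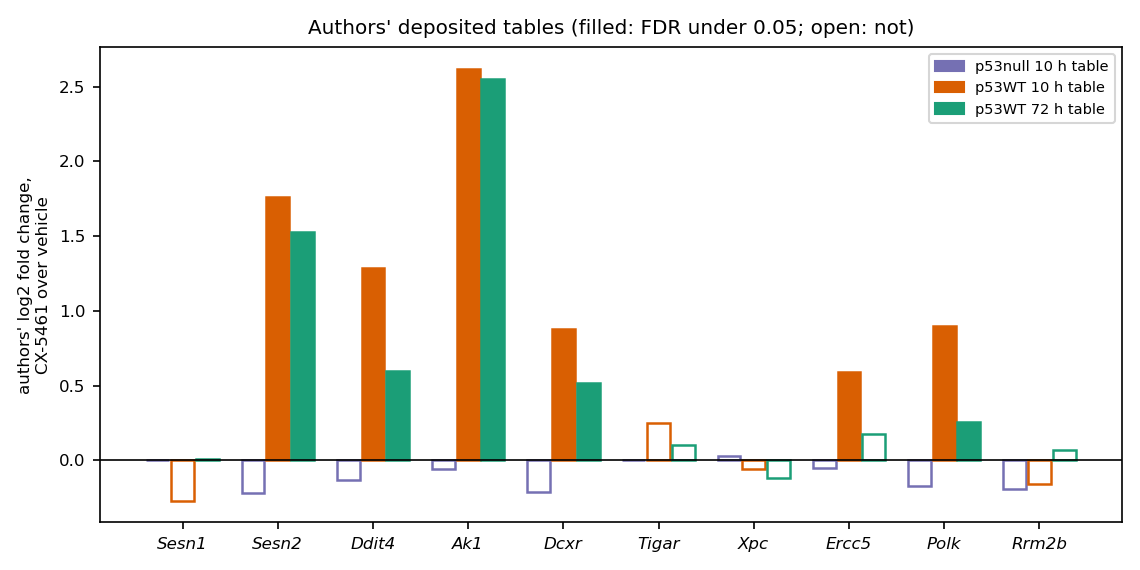
Log2 fold change, CX-5461 over vehicle, of the 10 genes in the authors' deposited tables for p53null AML at 10 h (purple), p53WT AML at 10 h (orange) and p53WT AML at 72 h (green); filled bars had an FDR under 0.05, and the tables give no error. The purple bars lie between -0.22 and 0.03, while Sesn2 and Ak1 are at 1.53 or more in both p53WT tables.

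Mean levels over both arms differed between the genotypes at 10 h for several of the 10. In the authors' deposited tables Ddit4 averaged 29.3 CPM in p53null AML and 9.46 CPM in p53WT AML, a ratio of 3.09, and Sesn2 averaged 61.4 CPM in p53null AML and 27.1 CPM in p53WT AML, a ratio of 2.27. Ak1 was at 2.39 CPM in p53null AML and 1.32 CPM in p53WT AML. The 3 genes with the largest 10 h fold changes in p53WT AML thus had the higher mean in p53null AML. In the other direction, the authors' deposited tables gave Dcxr 10.2 CPM in p53null AML and 30.2 CPM in p53WT AML (ratio 0.337), Ercc5 9.78 CPM and 17.7 CPM in the same order (0.553), and Xpc 148 CPM and 219 CPM (0.676). Smaller differences were listed for Tigar, at 50.7 CPM in p53null AML and 59 CPM in p53WT AML, and for Sesn1, at 16.5 CPM in p53null AML and 19.1 CPM in p53WT AML. Polk and Rrm2b had ratios of 0.982 and 1.04.

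Over the 11879 genes in both tables the log2 ratio of the means, p53null over p53WT, had a median of -0.07, with 10% of genes under -0.80 and 10% over 0.75. A higher ratio than that of Ddit4 was held by 3.7% of genes, than that of Sesn2 by 6.02%, and than that of Ak1 by 8.7%. For Dcxr 96.6% of genes had a higher ratio. The tables were normalized separately, the means cover treated and vehicle samples together, and without values per library these ratios were not tested. At 72 h in p53WT AML the authors' means were 18.2 CPM for Sesn2, 8.02 CPM for Ddit4, 0.959 CPM for Ak1, 19.7 CPM for Dcxr, 13.3 CPM for Ercc5 and 19.5 CPM for Polk.

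**Figure D4:**
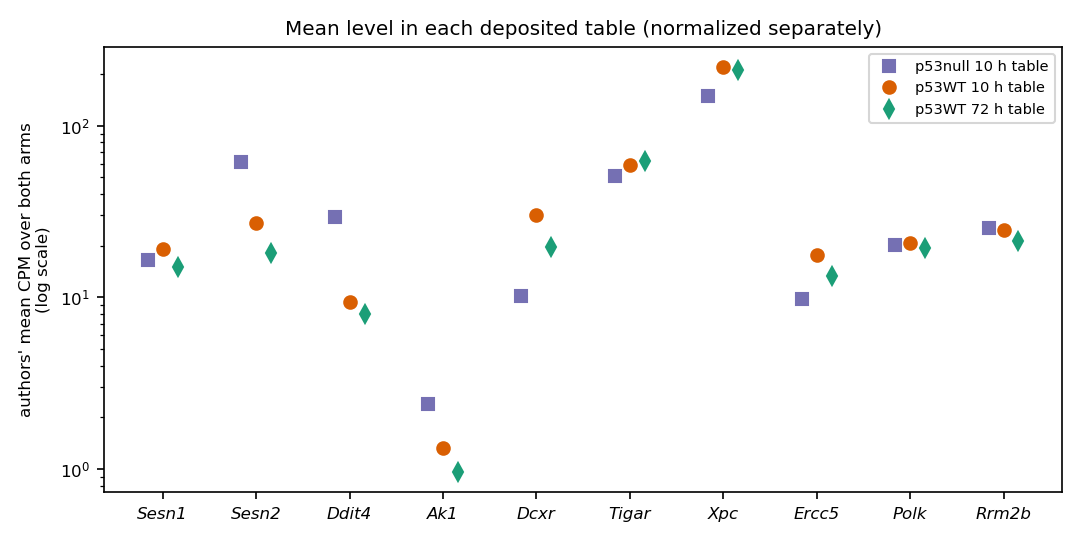
Mean CPM over CX-5461 and vehicle samples of each of the 10 genes in the authors' deposited tables for p53null AML at 10 h (squares), p53WT AML at 10 h (circles) and p53WT AML at 72 h (diamonds); log axis, tables normalized separately, no error available. Sesn2 (61.4 CPM) and Ddit4 (29.3 CPM) are highest in p53null AML, and Dcxr (10.2 CPM) is lowest there.

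Of the other genes of the metabolic and repair pathways of these 10, 2.46% of 122 measured were called higher and 4.1% lower in p53WT AML at 10 h, near the 3.78% and 4.32% of all genes. Each pathway was described by a list of its other genes, with counts from the edgeR test. Of the p53 targets outside the 10, such as Cdkn1a and Phlda3, 16 of 23 measured genes rose and 0 fell, with a median log2 fold change of 0.82. Phlda3, an inhibitor of Akt signalling, went furthest, at 32.8 ± 2.15 CPM with CX-5461 and 2.24 ± 0.359 CPM with vehicle (SD, n = 3 each, log2 fold change 3.85, edgeR adjusted p = 8.19e-05). At an unadjusted p under 0.05 the list had 18 higher and 1 lower, DESeq2 and the edgeR exact test each called 17 higher and 1 lower, and limma-voom 16 higher and 0 lower. Among 28 other mTORC1 regulators 0 rose and 0 fell, with a median of 0.02. At an unadjusted p under 0.05 there was 1 higher and there were 2 lower, Lamtor1 at -0.20 and Mlst8 at -0.31, and DESeq2 called 0 higher and 1 lower while limma-voom and the edgeR exact test called 0.

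Among 28 other nucleotide excision repair genes 0 rose and 0 fell by the edgeR quasi-likelihood test (median 0.08). Unadjusted counts were 7 higher and 1 lower, DESeq2 called 3 higher and 1 lower, and limma-voom and the edgeR exact test called 0. The smallest p-values were those of Ercc8, which acts in transcription-coupled repair, at 0.36 (edgeR adjusted p = 0.0535), and Rad23b, the partner of Xpc, at 0.20 (edgeR adjusted p = 0.058). Of 13 translesion synthesis genes 0 rose and 0 fell (median -0.03), with 2 higher and 1 lower at an unadjusted p under 0.05. In this list DESeq2 and the edgeR exact test called 0 higher and 1 lower, and limma-voom called 0. Rev1, the scaffold of translesion polymerases, was at 0.30 (edgeR adjusted p = 0.114) and Ube2b at -0.44 (edgeR adjusted p = 0.0901).

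The metabolic lists held a few calls in either direction. Of 15 genes of dNTP supply, Dctd (dCMP deaminase) rose and Samhd1 and Tk2 fell, with a median of -0.11. With 3 higher and 3 lower at an unadjusted edgeR p under 0.05, the calls differed by tool. DESeq2 called 2 higher and 3 lower, limma-voom 1 higher and 0 lower, and the edgeR exact test 1 higher and 2 lower. Tk2 was not called in the authors' deposited table for p53WT AML at 10 h (FDR = 0.0862). Dctd was at 35.1 ± 2.17 CPM with CX-5461 and 22.1 ± 4.26 CPM with vehicle (SD, n = 3 each, edgeR adjusted p = 0.0421). Of 13 adenylate kinase and AMP metabolism genes, Adsl at 0.32 and Ampd2 at 0.37 rose and 0 fell (median -0.01), against 2.62 for Ak1. The authors' deposited table for p53WT AML at 10 h called neither Adsl (FDR = 0.101) nor Ampd2 (FDR = 0.0653). Unadjusted, the same list had 2 higher and 2 lower, DESeq2 and the edgeR exact test each called 2 higher and 1 lower, and limma-voom 1 higher and 0 lower. Of 16 genes of the pentose phosphate pathway and of fructose-2,6-bisphosphate, the list nearest to Tigar, 0 rose and 2 fell. They were Pfkfb4, an enzyme that makes fructose-2,6-bisphosphate, at 33.1 ± 1.78 CPM with CX-5461 and 55.6 ± 12.6 CPM with vehicle (SD, n = 3 each, edgeR adjusted p = 0.0398), and G6pdx, the entry enzyme of the pentose phosphate pathway, at 195 ± 12.2 CPM with CX-5461 and 266 ± 32.9 CPM with vehicle (edgeR adjusted p = 0.0419). No gene of that list was higher at an unadjusted p under 0.05 or by the other 3 tools, which called 2 or 3 lower. At 72 h G6pdx was higher with CX-5461, at a log2 fold change of 0.42 (FDR = 8.26e-06) in the authors' deposited table. Of 9 genes of glucuronate and xylulose metabolism, the pathway of Dcxr, Ugdh fell at -0.35 (edgeR adjusted p = 0.0333) and Gusb was at 0.21 (edgeR adjusted p = 0.0622). In the authors' deposited table for p53WT AML at 10 h Ugdh was not called (FDR = 0.0628). None of these 9 was called higher by the edgeR, limma-voom or exact test, and 1 was by DESeq2 and at an unadjusted p under 0.05.

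Targets of the other regulators of Sesn2 and Ddit4 were few, 28 measured genes in all, and the edgeR quasi-likelihood test called 0 of them higher and 3 lower. With 3.78% of all genes called higher, a count of 0 in 28 lies near the background. The 3 called lower were 10.7% of the 28, beside 4.32% of all genes. Of 14 ATF4 targets 0 rose and 0 fell (median -0.08), with 2 higher and 2 lower at an unadjusted p under 0.05. DESeq2 and the edgeR exact test each called 1 higher and 2 lower, and limma-voom called 0. Chac1, a glutathione-degrading enzyme, was at -0.63 (edgeR adjusted p = 0.0513). Ppp1r15a (GADD34) was at 4.85, 4.41 and 4.34 CPM with CX-5461 and at 34.9, 101 and 5.91 CPM with vehicle (edgeR adjusted p = 0.0594), and its vehicle values followed the order of the erythroid sums. Of 14 hypoxia and glucocorticoid targets 0 rose and 3 fell, Dusp1, Ndrg1 at -0.82 and Tsc22d3 at -0.47, with a median of 0.07. Unadjusted, this list had 2 higher and 3 lower, and DESeq2 and the edgeR exact test each called 1 higher and 3 lower, limma-voom 0 higher and 2 lower.

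Of p53null AML, the authors' deposited table called none of the 156 measured genes of these 9 lists, with 15 at an unadjusted p under 0.05. It also called none of 21 p53 targets outside the 10, with 1 at an unadjusted p under 0.05. Phlda3 was not listed for p53null AML and is not among these 21. Since 0.148% of all genes were called higher and 0.0389% lower there, and 6.07% had an unadjusted p under 0.05, these counts of 0 lie near the background. At 72 h in p53WT AML the table called 18 of 25 p53 targets higher, with a median log2 fold change of 0.55, and 0 lower. Over all genes of that comparison 16.1% were called higher and 15.1% lower. Of 28 nucleotide excision repair genes 0 were higher and 4 lower, of 13 translesion synthesis genes 0 higher and 4 lower, of 29 mTORC1 regulators 3 higher and 4 lower, of 15 ATF4 targets 4 higher and 0 lower, and of 15 hypoxia and glucocorticoid targets 4 higher and 7 lower. Of 15 dNTP supply genes 0 were higher and 2 lower, of 13 adenylate kinase and AMP metabolism genes 2 higher and 1 lower, of 16 pentose phosphate pathway genes 1 higher and 2 lower, and of 9 glucuronate and xylulose genes 1 higher and 0 lower.

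**Figure D5:**
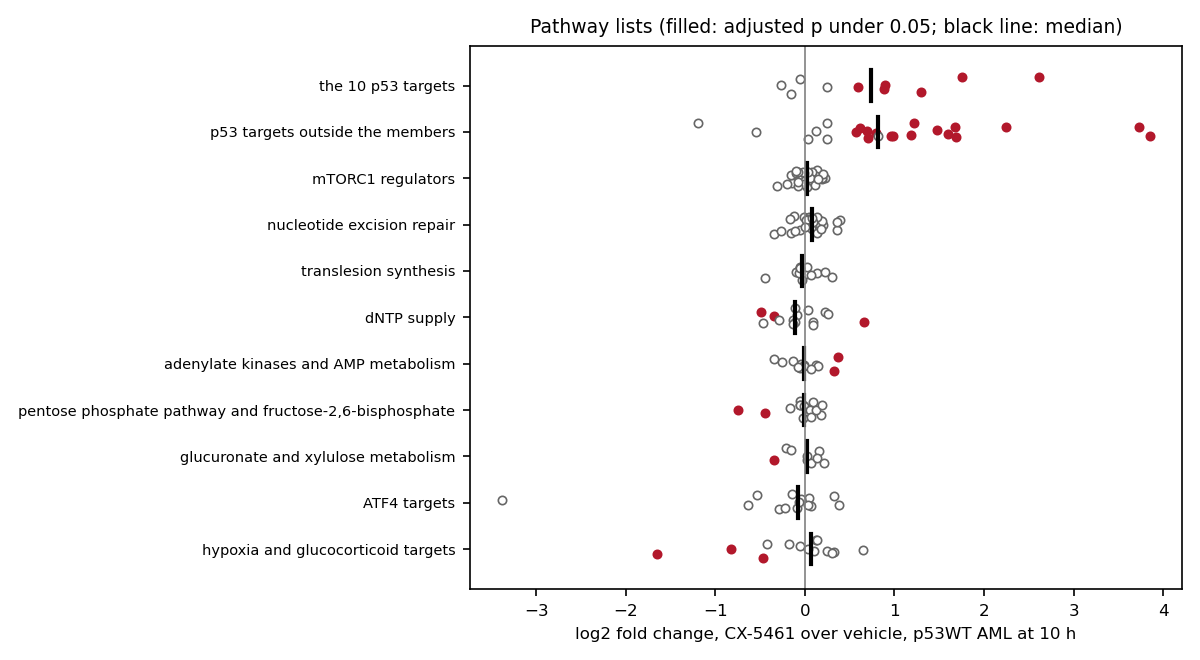
Log2 fold change, CX-5461 over vehicle, in p53WT AML at 10 h (horizontal axis) of the 10 genes and of the measured genes in each list (rows); every point is a gene, filled points passed an edgeR adjusted p under 0.05, and black lines are medians. The medians of the 10 genes (0.74) and of other p53 targets (0.82) lie to the right, and those of the other 9 lists between -0.11 and 0.08.

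The genes whose 3 log2 fold changes in the authors' deposited tables lay nearest to the medians of the 10 (0.74 in p53WT AML at 10 h, -0.09 in p53null AML and 0.22 in p53WT AML at 72 h) were sought among 10180 genes by Euclidean distance. The nearest was Mdn1, a ribosome assembly ATPase, with 0.75 in p53WT AML at 10 h, -0.06 in p53null AML and 0.26 in p53WT AML at 72 h. Zfp958, Fasn (fatty acid synthase), Utp20 (a factor of the small ribosomal subunit processome) and Tef followed at distances of 0.108 to 0.134, against 0.0499 for Mdn1. None of these 5 genes is on the p53 list used here.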

How the data were processed

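The TruSeq RNA library kit, per the labels' protocols, keeps no strand information. The submitters' processing notes name the mm9 build, CASAVA 1.8.2, Bowtie, HTSeq and edgeR, with no order or settings. The authors deposited 3 edgeR tables. Per the file headers, each holds the authors' log2 fold change and log2 mean CPM, and a p-value and FDR per gene, and that for p53WT AML at 10 h also raw counts for 6 libraries. Its count columns carry other numbers than the sample titles, so each was assigned to its group only. Low genes were absent from the deposited tables, and every gene with counts exceeded 1 CPM in at least 3 libraries, a filter that all 10 genes passed. Ak1 passed it only through the CX-5461 libraries, at 2.04 to 2.48 CPM, against 0.302 to 0.417 CPM with vehicle. A GENCODE vM21 table gave symbols to 12237 of 12679, 12366 of 12861 and 12362 of 12838 IDs.

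Counts were scaled by TMM and tested with the two-sided quasi-likelihood test of edgeR 4.0.16 (R 4.3.3), with treatment as the only term, and p-values were Benjamini-Hochberg adjusted over all 12679 genes. DESeq2 1.42.0, limma-voom (limma 3.58.1), the edgeR exact test, RLE and library-size scaling, a filter at a mean of 5 CPM, an erythroid covariate, each library left out, and authors' FDR limits of 0.01 and 0.1 were the alternatives. DESeq2 gave Ak1 no adjusted p. For the p53null and the 72 h comparison the authors' values were used, without SD, n or a test of differences between tables. Named genes were the 10, Trp53, Cdkn1a, Rrm2, the 2 genes with the smallest p in each of 10 lists and the 5 nearest in pattern; list members named beyond these are those called, or defining markers, and Rrm2 was added as the paralog of Rrm2b. The 10 genes, the lists and the tests were chosen with earlier results of these data known. Promoter sequences are RefSeq's for GRCm38.p6, and 1 consensus letter string per motif was matched without mismatches.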

Additional observations from a re-analysis of the deposited data

How the results depend on the processing

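The count of 6 genes called higher in p53WT AML at 10 h held under RLE and library-size scaling, limma-voom and the edgeR exact test, with the same 6 genes. The shares of all genes called higher in these fits were 3.68%, 3.41%, 3.11% and 5.47%, in that order, beside 3.78% in the fit reported. At a mean of at least 5 CPM, which removed Ak1, the count was 5 of 9 (share 4.96%). With DESeq2, which added Tigar and gave no adjusted p for Ak1, it was 6 of 9 (share 7.89%). With the erythroid covariate it was 2, and over the fits that left out a library it ranged from 2 to 6. The log2 fold change of Sesn1 turned positive with the erythroid covariate, at 0.38 (edgeR adjusted p = 0.455); the cause was not tested. Over the single genes, 110 alternative values kept their direction and side of the threshold, 16 kept the direction but no longer passed, 1 newly passed and 1 turned. No gene of the 10 was called lower under any of these alternatives, in which the share of all genes called lower ran from 0% (erythroid covariate) to 11.1% (DESeq2). In the authors' deposited tables the count at 72 h was 4 at an FDR under 0.01 and 5 at an FDR under 0.1, and the counts of 6 in p53WT AML at 10 h and 0 in p53null AML were the same at both limits. The alternative without a further filter equals the fit reported, since the deposited table was used whole. No paired analysis was possible because the count columns carry no number of the sample titles. Depth limited Ak1 most, with 7 to 20 reads per vehicle library.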
